A study of Macaca mulatta with 4 samples.

Results

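Blood mononuclear cells of a rhesus macaque (Macaca mulatta) study were compared between a library taken before immunosuppression (Pre-IS) and a library taken 4 weeks after islet transplantation (4 wpt). The compared libraries are 2 of 4, and they hold 3810 of the 6993 labelled cells, 1928 for Pre-IS and 1882 for 4 wpt. Every cell type label with at least 50 cells in both libraries was compared gene by gene. This gave 5 of 9 labels: T cells, NK cells, B cells, CD14+ monocytes and MS4A7+ monocytes, with 1780 Pre-IS and 1792 4 wpt cells. Shares of cells were taken over all 9 labels. The study placed islets made from human chemically induced pluripotent stem cells (hCiPSC-islets) into macaques and examined the recipient's immune response. The Pre-IS blood had met neither drugs nor graft, while the 4 wpt blood came from an animal that had received both. The labels name no drug, give no age, and do not say whether the libraries came from 1 animal or from several. Drug, graft, time and library therefore cannot be told apart in this comparison. The other libraries, taken after immunosuppression but ahead of the transplant (Post-IS) and 8 weeks after it (8 wpt), are given as values only.

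T cells recognise peptides through the T cell receptor, NK cells kill through germline-encoded receptors, and B cells display an antigen receptor built around CD79A and CD79B. Classical CD14+ monocytes respond to microbes and injury, and nonclassical monocytes, marked in this study by MS4A7, patrol vessel walls and can make complement C1q. Immunosuppression for islet grafts is commonly aimed at T cell activation and proliferation, and glucocorticoids, where used, act on every one of these classes through a receptor that switches on genes such as FKBP5.

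The 4 wpt library was the deeper one. It held 6910432 UMIs (unique molecular identifiers, a count of captured RNA molecules) against 3356133, and a median of 3551 UMIs per cell against 1563. Median UMIs per cell were 2.38 to 2.57 times higher at 4 wpt in T, NK and B cells, and 1.55 and 1.75 times higher in CD14+ and MS4A7+ monocytes. With 1 library per group there is no replicate and no test. Gene levels are UMIs summed over the cells of a class, scaled to counts per 1000000 UMIs of that class (CPM). Intervals are exact 95% intervals (Poisson for a CPM, conditional binomial for a ratio, Clopper-Pearson for a share) that cover counting error only. They are too narrow wherever the UMIs of a gene sit in few cells. The 5 compared labels each held UMIs of all markers on their own list in both libraries. The 8 B cell markers summed to 7468 and 4484 CPM in B cells but to 35.6 and 23.0 in T cells. CD14+ monocyte markers summed to 22120 and 25014 CPM in CD14+ monocytes, against 1849 and 1095 in MS4A7+ monocytes. The platelet label went against its markers: its 12 cells, all from 4 wpt, held 3 UMIs of the platelet list with 7 of 8 members at 0, against 57 UMIs each of the NK cell and CD14+ monocyte lists. The NK cell list is not particular to NK cells, with 5250 CPM in these 12 cells and 5318 and 4274 in CD14+ monocytes. Hemoglobin genes took 0.0564% of Pre-IS and 0.344% of 4 wpt UMIs in CD14+ monocytes, and 0.0176% and 0.121% in NK cells. HBA stood at 544 and 1856 CPM in CD14+ monocytes and 172 and 595 in NK cells, and most of the rest at 4 wpt was HBE1, at 1576 and 612 CPM. The Y-linked gene DDX3Y stood at 70.3 CPM in Pre-IS and 69.6 at 4 wpt, and UTY at 48.6 in both. The libraries shared 7 cell barcodes, and 12 cells in each were possible doublets, which were kept here and left out as an alternative.

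B cells took a smaller share of the 4 wpt library and MS4A7+ monocytes and proliferating lymphocytes a larger one. B cells made up 18.2% of Pre-IS cells (95% interval 16.5 to 20, 351 cells) and 6.06% of 4 wpt cells (5.02 to 7.23, 114 cells), 3.01-fold lower (2.43 to 3.75). Naive B cells went from 5.71% (110 cells) to 0.744% (14 cells), 7.67-fold lower (4.38 to 14.5). Both B labels together made up 23.9% and 6.80% of cells, 3.52-fold lower (2.88 to 4.31), and the naive label was 23.9% of that B lineage in Pre-IS and 10.9% at 4 wpt. MS4A7+ monocytes went from 3.89% (3.07 to 4.85, 75 cells) to 11% (9.62 to 12.5, 207 cells), a ratio of 2.83 (2.16 to 3.73). CD14+ monocytes differed less, at 13.3% and 16.6%, a ratio of 1.25 (1.06 to 1.48). Within monocytes the MS4A7+ label therefore went from 22.7% to 39.9%. The label for proliferating NK and T cells held 8 cells (0.415%) in Pre-IS and 41 (2.18%) at 4 wpt, a ratio of 5.25 (2.43 to 13). T cells at 43.6% and 47.2% and NK cells at 13.3% and 14.3% had ratios whose intervals include 1 (0.984 to 1.19 and 0.904 to 1.28). Dendritic cells, a label of 30 and 23 cells, had a ratio of 0.785 (0.436 to 1.40). The platelet label, whose cells nearly lacked platelet markers, was on 0 of 1928 Pre-IS cells, where 3 counts of the total allow a share of up to 0.156%, and on 12 cells (0.638%) at 4 wpt.

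**Figure D1:**
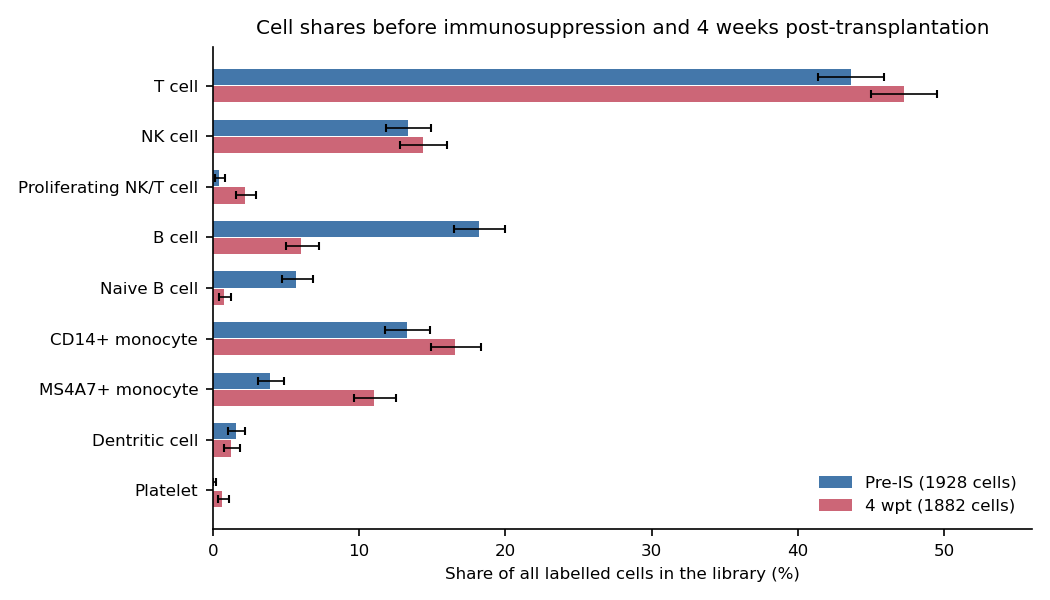
Share of all labelled cells (%) for each of the 9 labels in the Pre-IS and 4 wpt libraries, spelled as deposited; bars are shares and lines exact Clopper-Pearson 95% intervals. B cells went from 18.2% to 6.06% of cells and MS4A7+ monocytes went from 3.89% to 11%, while the intervals of T and NK cells overlap.

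B cells were also a smaller part of the lymphocytes alone. There they were 22.4% in Pre-IS and 8.58% at 4 wpt, 2.61-fold lower (2.11 to 3.25), and T cells were 53.7% and 66.9%. In the other libraries B cells were 1.99% of Post-IS and 6.90% of 8 wpt cells, MS4A7+ monocytes 21.7% and 2.52%, and proliferating NK and T cells 0.332% and 1.16%. The 4 wpt share of MS4A7+ monocytes thus lay between those of Post-IS and of Pre-IS and 8 wpt. Among cells with at least 1000 UMIs, which were 42 of the 75 Pre-IS and 179 of the 207 4 wpt cells of this label, the MS4A7+ ratio was 4.04.

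Most genes differed by less than 2-fold in every class. A gene was counted as measured in a class when its mean CPM stood for at least 20 UMIs in the smaller class total, which let through 6414 genes in T cells but 769 in MS4A7+ monocytes. In T cells 101 measured genes (1.57%) were at least 2-fold higher at 4 wpt and 48 (0.748%) at least 2-fold lower. NK cells had 55 higher (1.82%) and 28 lower (0.928%) of 3016 genes. B cells had 102 higher (2.87%) and 79 lower (2.22%) of 3558, the largest percentages of the 5 classes. CD14+ monocytes had 53 higher (1.6%) and 40 lower (1.2%) of 3321, and MS4A7+ monocytes 12 higher (1.56%) and 13 lower (1.69%). The median log2 ratio over measured genes was 0.03 in T cells, 0.00 in NK cells, 0.03 in B cells, -0.05 in CD14+ monocytes and -0.12 in MS4A7+ monocytes. Among all measured genes, whether or not past 2-fold, the interval lay wholly beyond 1.5-fold for 70 in T cells and 41 in NK cells. The counts were 96 in B cells, 46 in CD14+ and 15 in MS4A7+ monocytes. The balance of directions in B cells and monocytes depended on the scaling. In B cells 56.4% of genes past 2-fold were higher at 4 wpt, and 47.8% (88 higher and 96 lower) with TMM scaling. In CD14+ monocytes the share was 57.0%, against 67.7% with TMM scaling and 65.6% with median-of-ratios scaling. In MS4A7+ monocytes it was 48.0%, against 63.0% and 69.0%, and median-of-ratios scaling moved all log2 ratios there by 0.11.

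**Figure D2:**
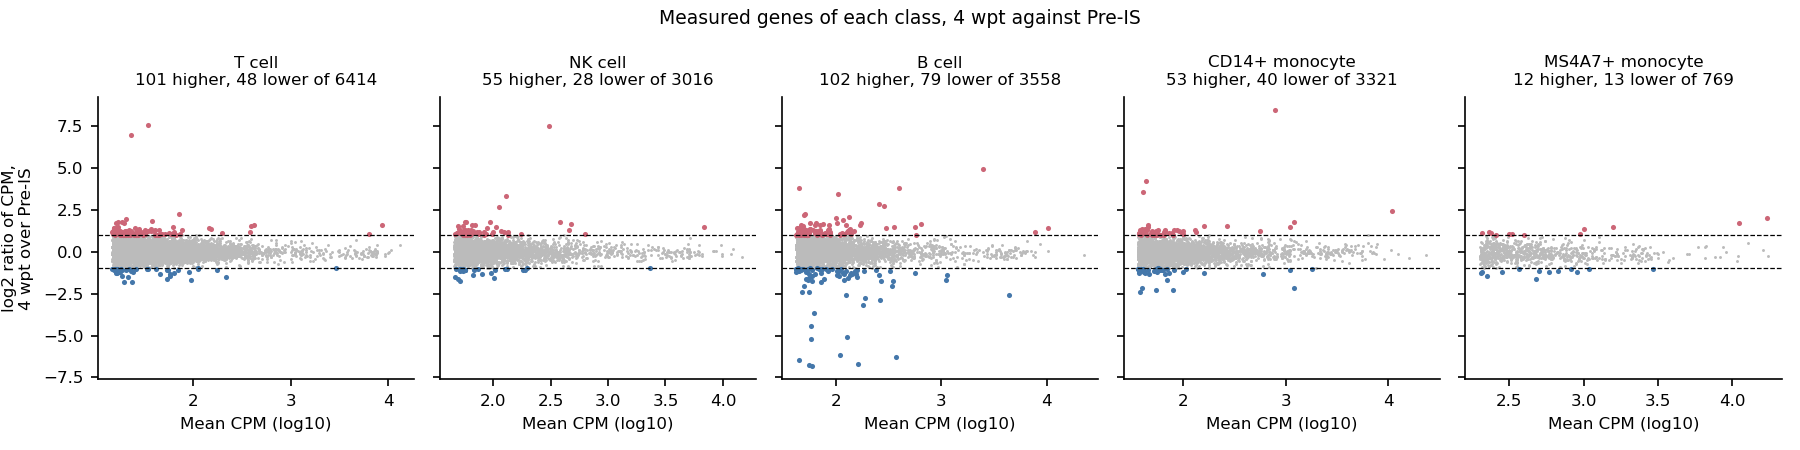
log2 ratio of CPM (4 wpt over Pre-IS) of every measured gene against its mean CPM (log10 axis), 1 panel per class; red points are at least 2-fold higher and blue points at least 2-fold lower at 4 wpt, and dashed lines mark 2-fold. Grey points, the genes within 2-fold, are 94.9% of measured genes in B cells and 96.7% to 97.7% in the other classes; the far points above 7 in T cells, NK cells and CD14+ monocytes are genes of 1 cell.

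A single cell set the highest ratio among measured genes in T cells, NK cells, B cells and CD14+ monocytes. HBE1, an embryonic hemoglobin gene, had 1 UMI in Pre-IS and 642 at 4 wpt in NK cells, of which 638 lay in 1 cell. In CD14+ monocytes it had 2 and 1853 UMIs, with 1838 in 1 cell. A light chain gene, IGLV3-10, had 30 and 354 UMIs in B cells, and 95.2% of the latter came from 1 cell. In all, 8 calls over the 5 classes had more than 90% of the UMIs of the higher library in 1 cell, and these cells were 7. The B cell genes without a symbol included 27 of the 79 lower and 10 of the 102 higher genes.

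A small set of genes differed the same way in at least 3 classes. Of 3080 genes measured in 3 or more classes, 8 (0.26%) were at least 2-fold higher in 3 or more and 2 (0.0649%) at least 2-fold lower, with no class past 2-fold the other way. Of the 3080, 2831 were past 2-fold in none. ND2, a subunit of respiratory complex I encoded in the mitochondrial genome, was higher in all 5. Its level went from 198 to 584 CPM in T cells, a ratio of 2.95 (2.59 to 3.37), from 264 to 645 in NK cells, from 290 to 821 in B cells, from 339 to 784 in CD14+ monocytes and from 560 to 1456 in MS4A7+ monocytes. The gene IDs ENSMMUG00000028695 and ENSMMUG00000055690, which have no symbol here, were also past 2-fold in all 5 classes. The former had ratios of 2.75 to 3.2. The latter was among the most abundant RNAs, at 4273 and 12840 CPM in T cells, 3410 and 18291 in CD14+ monocytes and 6757 and 27536 in MS4A7+ monocytes, with ratios of 2.69 to 5.36.

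RBIS, a ribosome biogenesis factor, was past 2-fold in the 4 classes that measured it. It went from 79.3 to 214 CPM in T cells (ratio 2.71, 2.20 to 3.35), from 68.8 to 166 in NK cells, from 50.1 to 184 in B cells and from 82.1 to 236 in CD14+ monocytes. The same gene had 76.5 CPM in Post-IS and 109 in 8 wpt T cells, so 4 wpt was the highest of the 4 libraries. UQCRB, a subunit of respiratory complex III, went from 44.4 to 108 CPM in T cells, from 55.0 to 118 in NK cells and from 49.3 to 124 in CD14+ monocytes, and in B cells its ratio of 1.56 had an interval (0.971 to 2.54) that includes 1. On the lower side, ZC3H10, a zinc finger protein, stood at 3884 and 1936 CPM in T cells, 3108 and 1550 in NK cells and 2393 and 1190 in CD14+ monocytes, 2.01-fold lower in each. It was 1.98-fold lower in B cells and 1.78-fold lower in MS4A7+ monocytes, just inside the threshold. ENSMMUG00000031367, the other lower gene, was 3.30-fold lower in T cells (2.64 to 4.13), 2.50-fold in NK cells, 2.19-fold in B cells and 4.54-fold in CD14+ monocytes. These genes differed in the same way in lymphocytes and monocytes of the same pair of libraries, and the part of the library itself was not tested.

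**Figure D3:**
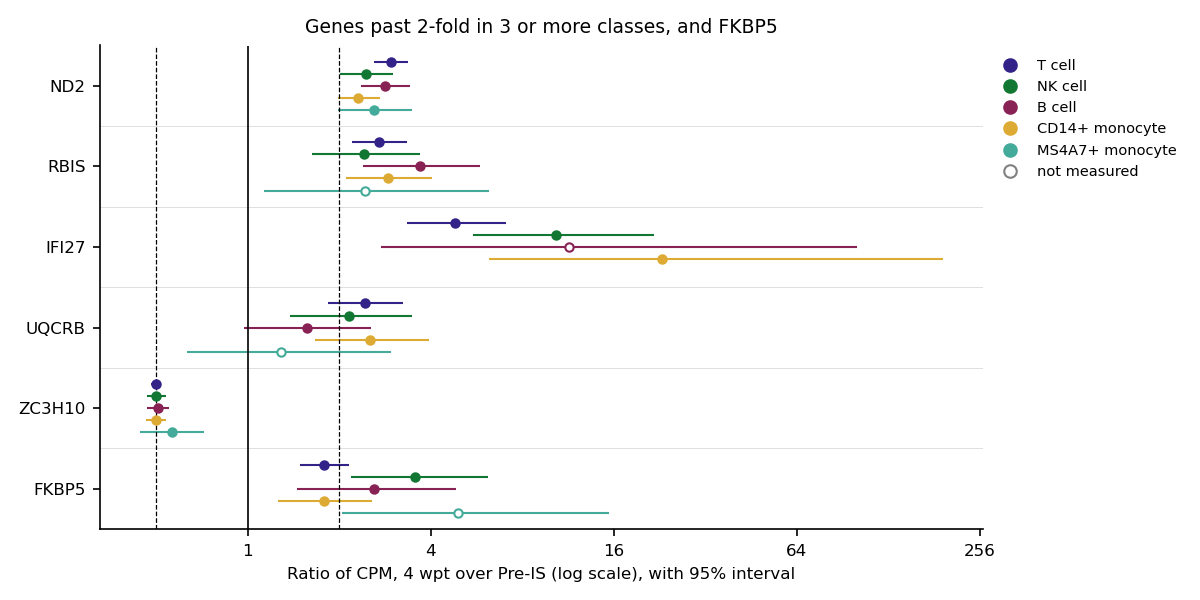
Ratio of CPM (4 wpt over Pre-IS, log axis) with its exact 95% interval in each class for the named genes past 2-fold in 3 or more classes, and for FKBP5; open circles are classes where a gene was not measured. ND2 lies beyond 2 in all 5 classes and ZC3H10 close to 0.5, while IFI27 ranges from 4.79 in T cells to 23.1 in CD14+ monocytes; IFI27 in MS4A7+ monocytes had 0 UMIs in Pre-IS and is not drawn.

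Mitochondrially encoded genes differed in both directions. Of 10 measured in T cells, 2 were past 2-fold higher, ND2 and ND1 (237 and 525 CPM, ratio 2.21), with a list median log2 ratio of 0.14. In B cells 3 of 8 were, ND2, ND1 and ATP6 (55.2 and 120 CPM), with a median of 0.55, and 5 of 10 with each cell weighted equally (0.85). NK cells had 1 of 7 (median 0.39), CD14+ monocytes 1 of 9 (-0.21) and MS4A7+ monocytes 1 higher and 1 lower of 6 (0.02). COX3, another subunit gene, went from 3527 to 5801 CPM. COX1 moved the other way in T cells, from 473 to 347 CPM, and was 1.98-fold lower in NK cells, 1.83-fold in CD14+ monocytes and 2.0-fold in MS4A7+ monocytes. Over all measured genes, 1.57% were past 2-fold higher in T cells, 2.87% in B cells and 1.82% in NK cells. In CD14+ monocytes 1.6% were higher, and in MS4A7+ monocytes 1.56% were higher and 1.69% lower. Mitochondrial UMIs were 0.653% of the Pre-IS and 0.948% of the 4 wpt library. Of the nuclear-encoded respiratory chain genes, 1 of 69 was past 2-fold in T cells, and the median log2 ratio was -0.06. Cytosolic ribosomal protein genes had medians of -0.06 in T cells, -0.03 in NK cells, -0.05 in B cells, 0.00 in CD14+ monocytes and -0.23 in MS4A7+ monocytes, over 70 to 75 measured genes. Across the 641 genes measured in all 5 classes, the Pearson correlation of log2 ratios between classes ran from 0.424 (NK cells with MS4A7+ monocytes) to 0.656 (T with NK cells). The classes share the same pair of libraries, which differ in depth, so these values are a description.

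IFI27, a gene strongly induced by type I interferon, had the largest ratios among the shared genes. In T cells it had 24.4 CPM in Pre-IS and 117 at 4 wpt, a ratio of 4.79 (3.35 to 7.06). In NK cells the values were 22.9 and 236, a ratio of 10.3 (5.52 to 21.8). CD14+ monocytes had 2 UMIs in Pre-IS and 99 at 4 wpt, a ratio of 23.1 (6.22 to 193), with 25.3% of the 99 in 1 cell. IFI27 was thus higher in T cells, NK cells and CD14+ monocytes, the classes that measured it, and in B cells the counts were 2 and 19. A gene counts as measured on the mean of both libraries. In NK cells, with 10 Pre-IS UMIs, and in CD14+ monocytes, IFI27 was measured because of its 4 wpt counts. Without a rise it would not have been measured there, so the shared direction of the measured classes is not a test. With every cell thinned to 1000 UMIs, 1.86% of Pre-IS and 7.96% of 4 wpt T cells had an IFI27 UMI (3.21% and 19.0% unthinned), and 1.66% and 20.8% of NK cells (3.11% and 42.2% unthinned). In thinned MS4A7+ monocytes it was 2.23% of cells at 4 wpt, the lowest 4 wpt share of the 5 classes. The other libraries had 34.8 (Post-IS, 5 UMIs) and 57.7 CPM (8 wpt) in T cells and 114 and 91.2 in NK cells. The Post-IS NK value rests on 2 UMIs in 9 cells, below the 171 CPM that 3 counts stand for there.

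The rest of the type I interferon list differed far less than IFI27. In T cells 5 of 25 measured members were past 2-fold, all higher, and the list median log2 ratio was 0.27 against 0.03 over all measured genes, of which 1.57% were past 2-fold higher. With median-of-ratios scaling 3 of 25 were past 2-fold. Beside IFI27 these were PARP9 (11.9 and 28.4 CPM), MX2 (ratio 2.05), OAS2 (29.6 and 60.5 CPM) and SAMD9L (26.7 and 54.2 CPM), genes of antiviral defence. Abundant members stayed near 1, with IFITM2 at 660 and 733 CPM, ISG20 at 351 and 378 and BST2 at 264 and 241. NK cells had 2 of 13 members past 2-fold (median 0.21), B cells 2 of 12 (0.19), CD14+ monocytes 1 of 15 (0.17) and MS4A7+ monocytes 1 of 6 (-0.14), where 1.82%, 2.87%, 1.6% and 1.56% of all measured genes were past 2-fold higher. In B cells PARP14 had a ratio of 2.52 (1.45 to 4.53). The B cell median was not stable, at -0.30 when only genes with at least 50 expected UMIs were kept and 0.57 with each cell weighted equally. Interferon gamma response genes had medians of 0.10 to 0.24, and 1 of 10 in CD14+ monocytes was past 2-fold.

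FKBP5, a chaperone of the glucocorticoid receptor and a sensitive target of it, was higher at 4 wpt in all 5 classes. The level was 108 and 193 CPM in T cells, a ratio of 1.78 (1.49 to 2.15), 41.3 and 147 in NK cells (3.56, 2.18 to 6.16) and 31.1 and 80.8 in B cells (2.60, 1.45 to 4.83). In CD14+ monocytes it was 76.6 and 136 (1.78, 1.26 to 2.56) and in MS4A7+ monocytes 50 and 245 (4.91, 2.05 to 15.4, from 5 and 117 UMIs). Every interval lay above 1, though the T cell and CD14+ monocyte ratios were below 2. In MS4A7+ monocytes FKBP5 had 341 CPM in Post-IS and 27.5 at 8 wpt. The other glucocorticoid-induced genes did not move as a block. In NK cells 1 of 8 measured members was past 2-fold and the median was 0.47, with TSC22D3, which encodes the leucine zipper protein GILZ, at 385 and 561 CPM (ratio 1.46). In T cells 0 of 13 were past 2-fold (median 0.18) and in B cells 1 of 10 (0.21). Over all measured genes 1.82% were past 2-fold higher in NK cells and 2.87% in B cells, and 1.2% lower in CD14+ monocytes. CD14+ monocytes had 2 of 12 lower and a median of -0.28, but with the monocyte labels pooled 0 of 13 were lower and 1 was higher. There CD163, a hemoglobin scavenger receptor, went from 283 to 515 CPM (ratio 1.82, 1.53 to 2.19), and TSC22D3 from 462 to 313.

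Most genes past 2-fold were past it in 1 class only, but few were clear of the other classes. Of 3080 genes measured in 3 or more classes, 131 were past 2-fold higher in exactly 1 class and 87 lower in exactly 1. A gene counted as private when it was measured in at least 3 classes, past 2-fold in 1 of them, and its interval there met the interval of no other class that measured it. There were 24 such genes, 0.779% of 3080. They were 10 in B cells, 5 in T cells, 4 in NK cells, 4 in CD14+ monocytes and 1 in MS4A7+ monocytes. CD38, an NAD-cleaving surface enzyme of activated lymphocytes, was private to T cells, with 39.3 and 89.2 CPM, a ratio of 2.27 (1.69 to 3.11). It stood at 431 and 336 CPM in NK cells and 212 and 199 in B cells. PPM1J, a protein phosphatase, was 2.51-fold lower in T cells (82.2 and 32.8 CPM, 1.90 to 3.31) and 367 and 308 CPM in NK cells. The other T cell genes were SEC14L1 (16.3 and 37.5 CPM), SERPINA1 (150 and 74.7 CPM), which encodes alpha-1 antitrypsin, and CFD (11.9 and 29.0 CPM), which encodes complement factor D. Classes that did not measure these genes are not covered by the rule: SEC14L1 had a ratio of 2.44 (1.32 to 5.01) in MS4A7+ monocytes and CFD 2.22 (0.635 to 11.9) in NK cells. CFD was at 15553 and 16731 CPM in MS4A7+ monocytes and SERPINA1 at 713 and 516 CPM in CD14+ monocytes, so the T cell levels were a small part of those, and the share of free RNA in them was not tested.

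NK cells had MT1E, a metallothionein, at 29.8 and 195 CPM, a ratio of 6.56 (3.75 to 12.5). In T cells MT1E was already at 302 CPM in Pre-IS and stood at 403 at 4 wpt. CAPG, an actin-capping protein, went from 25.2 to 90.6 CPM (3.59, 1.92 to 7.44) and SATB1, a chromatin organiser, from 50.4 to 117 (2.33, 1.47 to 3.85). RASAL3, a negative regulator of Ras, was the lower gene, at 248 and 118 CPM. B cells had TESC, a calcium-binding protein, at 82.8 and 253 CPM (ratio 3.05, 2.17 to 4.36). LMNA, which encodes the nuclear lamins A and C, went from 50.1 to 216 CPM (4.31, 2.83 to 6.74), a log2 ratio of 2.09 that was 2.80 in thinned cells. In thinned B cells LMNA had a UMI in 2.74% of Pre-IS and 19.4% of 4 wpt cells (7.12% and 37.7% unthinned), against 0.415% and 0.377% of NK cells. PDIA6, a protein disulfide isomerase, went from 41.4 to 128 CPM, and its ratio fell below 2 without possible doublets (1.87) or without the 7 cells above (1.90). On the lower side in B cells were TYROBP, the adaptor DAP12, at 411 and 120 CPM (3.42-fold, 2.56 to 4.64), and CEMIP2 at 82.8 and 26.9. The log2 ratio of TYROBP was -1.76, and -1.08 in thinned cells. TYROBP stood at 3208 and 2484 CPM in NK cells, its highest class. It was also lower, by less than 2-fold, in every other class, from 1.29-fold in NK cells to 1.58-fold in MS4A7+ monocytes.

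CD14+ monocytes had PLAC8 higher, at 58.4 and 141 CPM (ratio 2.42, 1.65 to 3.65). DUSP1, a phosphatase that switches off MAP kinases, was 2.50-fold lower (852 and 340 CPM, 2.19 to 2.87). In MS4A7+ monocytes, by contrast, DUSP1 stood at 670 and 648 CPM, and in T cells at 58.5 and 63.4. HMOX1, heme oxygenase 1, went from 108 to 33.2 CPM (3.24-fold lower, 2.13 to 4.99) in CD14+ and from 260 to 201 in MS4A7+ monocytes. In T cells, which did not measure it, HMOX1 had 15 and 4 UMIs, 8.81-fold lower (2.81 to 36.5). MTMR14, a lipid phosphatase, went from 93.0 to 45.9. The gene of MS4A7+ monocytes was SNRPD2, a core protein of the spliceosome, at 290 and 122 CPM, 2.38-fold lower.

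**Figure D4:**
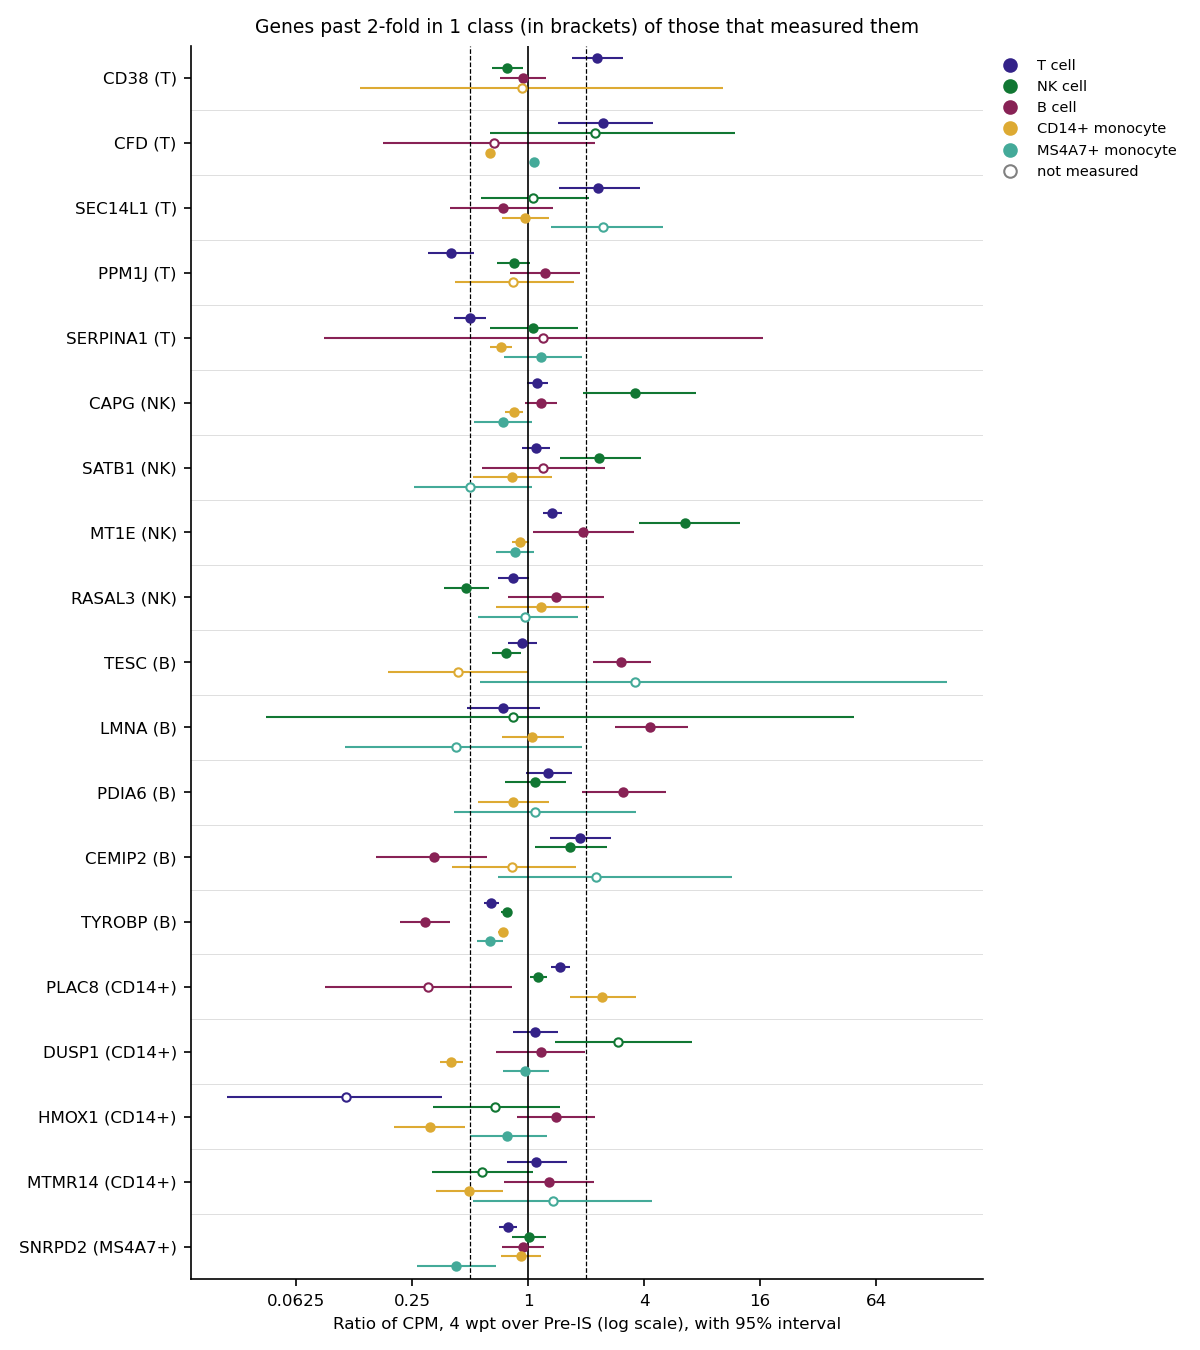
Ratio of CPM (4 wpt over Pre-IS, log axis) with its exact 95% interval in each class for the named genes past 2-fold in 1 class, given in brackets; open circles are classes where the gene was not measured, and a class with 0 UMIs in 1 library is not drawn. In each row the interval of the bracketed class is clear of every filled circle's interval, as for DUSP1 at 0.399 in CD14+ and 0.968 in MS4A7+ monocytes.

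In T cells the genes named by rank included a linker histone and the Ki-67 antigen on the higher side and killer lymphocyte genes on the lower side. H1-4, a linker histone, went from 16.3 to 60.2 CPM (ratio 3.70, 2.37 to 6.04), and MKI67, the Ki-67 antigen, from 5 to 65 UMIs (5.53, 2.25 to 17.6), too few to count as measured. The proliferation list as a whole did not follow, with 1 of 7 measured members past 2-fold, CENPF (12.6 and 26.5 CPM), and a median of -0.03. Of all measured T cell genes 1.57% were past 2-fold higher. CCL4L1, a chemokine of activated killer cells, went from 318 to 112 CPM (2.83-fold lower, 2.45 to 3.27). One Pre-IS cell held 33.8% of its UMIs, and without the top cell of each library the log2 ratio was -1.12 against -1.50. KLRF1, the killer receptor NKp80, was 2.76-fold lower (84.4 and 30.6 CPM, 2.09 to 3.66), and with cells thinned to 1000 UMIs it was seen in 8.50% of Pre-IS and 3.28% of 4 wpt T cells (10.2% and 6.97% unthinned). In B cells, which should lack it, the thinned share was 0.685% in Pre-IS.

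Most killer genes of T cells stayed within 2-fold. Of 6 killer receptor genes 1 was past 2-fold lower (median -0.49, with 0.748% of all measured genes past 2-fold lower), of 5 chemokine and cytokine genes 2 (-0.31) and of 9 effector transcription factors 2 (0.02). CCL3 went from 30.4 to 8.51 CPM (3.57-fold lower), TBX21, which encodes T-bet, from 45.9 to 22.4 (2.05-fold) and ZEB2 from 96.3 to 44.8 (2.15-fold). KLRD1, which encodes CD94, went from 379 to 214 CPM and the adaptor HCST from 927 to 568. Granule genes were closer to 1, with 0 of 10 past 2-fold and a median of -0.08: GZMB had 1865 and 1265 CPM, NKG7 1024 and 670, GNLY 1124 and 985 and PRF1 263 and 243. Trafficking genes past 2-fold were the lysophospholipid receptor S1PR5 (37.0 and 10.7 CPM) and the gut-homing receptor CCR9 (27.4 and 10.1 CPM), 2 of 18. The NK cell marker list summed to 2096 CPM in Pre-IS and 1307 in 4 wpt T cells. That list itself holds KLRF1, KLRD1 and NKG7, so its sum is not separate from these genes. The part of NK cells among the T cell label was not tested.

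Genes of the T cell receptor pathway stayed within 2-fold, as did most measured T cell genes. Of 15 measured signalling genes 0 were past 2-fold (median -0.06), with CD3E at 1382 and 1076 CPM and CD3D at 1136 and 1065. Naive and central memory genes had 0 of 12 past 2-fold (median 0.06), genes of calcineurin, NFAT and early activation 0 of 9 (-0.20) and common gamma chain receptors 0 of 13 (0.20). Inhibitory receptors had 1 of 6: LAG3 went from 17.8 to 35.6 CPM, at a ratio of 2.0 (1.28 to 3.26), and TIGIT from 77.0 to 126 (1.63, 1.31 to 2.05). MHC class II genes had 1 of 5, MAMU-DRA at 33.3 and 70.6 CPM (2.12, 1.53 to 2.99), while CD74, the invariant chain, went from 291 to 482. Of all measured T cell genes 1.57% were past 2-fold higher and 0.748% lower, so the counts of 0 above are near the share over all genes. MAMU-DRA stood at 5635 and 5276 CPM in CD14+ monocytes, and free RNA was not tested.

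In NK cells the measured cytotoxic granule genes stayed within 2-fold, as did most measured genes. GZMB was at 12273 and 11206 CPM, GNLY at 11466 and 12753, NKG7 at 3857 and 3152 and PRF1 at 1086 and 1082, and 0 of 10 granule genes were past 2-fold (median 0.02). KLRF1 went from 502 to 326 CPM, 1.54-fold lower. CENPF, a kinetochore protein, had 0 UMIs in Pre-IS and 28 at 4 wpt, at least 3.88-fold higher against a floor of 3 counts, and HELLS, a chromatin helicase, had 1 and 35 UMIs (ratio 14.6, 2.45 to 591). Both were too rare in Pre-IS to count as measured, and of the 4 measured proliferation genes 0 were past 2-fold (median 0.30). Genes lower by the naming rule were GPR174, a lipid receptor that restrains lymphocytes (151 and 51.5 CPM, 2.94-fold, 2.02 to 4.29), BOP1, a ribosome assembly factor (75.6 and 23.8, 3.17-fold), and BRI3, too rare to count as measured (43.5 and 9.53, 4.57-fold). ITGB7, an integrin of gut homing, went from 140 to 66.7 CPM, 1 of 12 trafficking genes past 2-fold. Of all measured NK cell genes 0.928% were past 2-fold lower and 1.82% higher. CD74 went from 408 to 862 CPM (2.11, 1.80 to 2.49). The median of the 5 class II genes was 0.40, and 1.10 with possible doublets left out, of which 1 was a Pre-IS NK cell.

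Dividing cells were sought directly by counting cells with UMIs of at least 3 proliferation genes. Thinned to 1000 UMIs, they were 2.39% of Pre-IS and 3.4% of 4 wpt T cells (1.42 to 3.75 and 2.29 to 4.84), 2.07% and 5.28% of NK cells (0.677 to 4.77 and 2.92 to 8.71) and 1.03% and 2.78% of B cells. These intervals overlap in each class. Without thinning the shares were 7.13% and 31.0% in T cells and 5.45% and 40.4% in NK cells, with the larger shares in the deeper library. The proliferating label itself had 87.5% and 90% of its thinned cells past this count.

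In B cells several genes of the antigen receptor complex and its co-receptors were lower at 4 wpt. CD79B, the Ig-beta chain, went from 1648 to 626 CPM, 2.63-fold lower (2.31 to 3.01), and CD72, an inhibitory co-receptor, from 214 to 35.2 CPM, 6.08-fold lower (3.64 to 10.8). With both B labels pooled, the log2 ratio of CD72 was -1.54 against -2.57. In thinned B cells CD79B had a UMI in 75.3% of Pre-IS and 49.1% of 4 wpt cells (86.6% and 79.8% unthinned), against 1.20% and 0.820% of T cells. FCRLA went from 195 to 64.2 CPM (3.04-fold lower) and FCRL1 from 147 to 64.2 (2.28-fold), both Fc receptor-like proteins of B cells. TTC24 had 27 and 2 UMIs, 11.2-fold lower (2.83 to 97.6), and was too rare to count as measured. Of 15 measured genes of B cell identity 4 were past 2-fold lower and 0 higher, and the list median was -0.50 against 0.03 for all measured genes, of which 2.22% were past 2-fold lower. Others of the list differed less: CD79A went from 2021 to 1225 CPM, MS4A1, which encodes CD20, from 2327 to 1639, and CD22 from 293 to 147. BANK1, an adaptor of receptor signalling, stood at 371 and 437. Genes of MHC class II had 0 of 9 past 2-fold (median -0.18) and genes of naive and memory state 0 of 9 (-0.03). The list median was -0.43 with possible doublets left out, with the same count past 2-fold.

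Some chaperones were higher in 4 wpt B cells, and 1 very deep cell held many of their UMIs. Of 13 heat shock and chaperone genes 4 were past 2-fold higher (median 0.67), where 2.87% of all measured B cell genes were (median 0.03). HSP90AB1, HSPE1 and STIP1 had ratios of 1.24, 1.30 and 1.24, and DNAJB1 and DNAJB6 0.924 and 0.867. The heat shock medians were 0.40 in T cells, 0.39 in NK cells, 0.26 in CD14+ and 0.29 in MS4A7+ monocytes, with 0 genes past 2-fold. HSP90B1, the endoplasmic reticulum member of the HSP90 family, went from 161 to 433 CPM in B cells (ratio 2.70, 2.10 to 3.48) and HSPD1, a mitochondrial chaperonin, from 60.4 to 187 (3.09). HSPA8, the constitutive HSP70, went from 659 to 1053 CPM (1.60, 1.40 to 1.83). The unfolded protein response list shares HSPA5 with the heat shock list, and 4 of its 10 measured genes were past 2-fold (median 0.88): HSPA5, which encodes BiP, at 39.7 and 162 CPM, PDIA6, PDIA4 at 48.3 and 124, and MANF at 48.3 and 99.5. CALR stood at 292 and 319. A 4 wpt B cell with 18607 UMIs, 3.86% of the UMIs of its class, held 29 of 78 HSPA5 UMIs, 22 of 62 PDIA6 UMIs and 23 of 40 UMIs of RRM2, the ribonucleotide reductase subunit of dividing cells. It had 1 CD79A and 2 MS4A1 UMIs, and 2.05% of its UMIs were immunoglobulin. It was 1 of the 7 cells that alone held over 90% of a gene, and without those 7 cells 2 of 10 unfolded protein response genes were past 2-fold (median 0.31). With possible doublets left out it was 1 of 10 (0.25), HSPA5 at a ratio of 2.32. HSPD1 and HSPH1 stayed past 2-fold in both settings, at 2.45 to 2.58 and 2.21 to 2.26, while HSP90B1 had 1.87 without possible doublets. LMNA had 0 UMIs in the deep cell and a ratio of 4.25 without the 7 cells. Of 6 proliferation genes 4 were past 2-fold in B cells (median 1.40), RRM2, CENPF (17.3 and 80.8 CPM), STMN1 (36.2 and 114) and PCNA (43.1 and 97.4). That median was 0.71 with possible doublets left out and 0.74 without the 7 cells.

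In CD14+ monocytes several immediate early genes, which cells switch on within minutes of stimulation or handling, were lower at 4 wpt. FOS went from 1961 to 437 CPM, 4.49-fold lower (4.03 to 4.99). FOSB went from 131 to 27.2 (4.83-fold, 3.14 to 7.56), EGR1 from 91.2 to 18.7 (4.87-fold, 2.90 to 8.45) and NR4A1, an orphan nuclear receptor, from 63.9 to 6.81 (9.38-fold, 4.28 to 23.4), the last from 35 and 8 UMIs and too rare to count as measured. The log2 ratio of EGR1 was -2.27, and -1.39 in thinned cells, and that of NR4A1 was -3.16, -5.31 in thinned cells and -0.74 with the monocyte labels pooled, past 2-fold no longer. JUN went from 96.7 to 38.3 CPM (2.53-fold). In thinned cells FOS had a UMI in 77.8% of Pre-IS and 31.4% of 4 wpt CD14+ monocytes (89.1% and 66.3% unthinned), against 1.73% and 0.937% of T cells. Of 13 measured immediate early genes 4 were past 2-fold lower and 0 higher, and the median was -0.63 against -0.05 for all measured genes, of which 1.2% were past 2-fold lower. JUNB at 538 and 300 CPM and BTG2 at 471 and 266 were lower by less than 2-fold, and MCL1 (383 and 374) and KLF6 (230 and 185) were nearer 1. ZFP36, which destabilises inflammatory mRNAs, went from 1505 to 697 CPM, 2.16-fold lower (1.96 to 2.38). The list median was -0.23 in cells thinned to 1000 UMIs, where 1 of 9 measured genes was past 2-fold, and -0.33 at a minimum of 50 expected UMIs, with 1 of 8.

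The same list had other values in the other classes, and the difference between classes was not tested. MS4A7+ monocytes had 0 of 6 past 2-fold and a median of 0.26, with JUNB at 240 and 373 CPM, T cells 0 of 10 (0.05), NK cells 0 of 5 (0.10) and B cells 1 of 7, higher (0.32). Of all measured B cell genes 2.87% were past 2-fold higher. In the other libraries CD14+ monocytes had 4741 CPM of FOS in Post-IS and 590 at 8 wpt, 421 and 25 of EGR1, and 205 and 12.5 of NR4A1. The 4 wpt and 8 wpt levels were thus both below Pre-IS, and Post-IS above it. How long blood was held before capture is not given in the labels, so handling cannot be told apart from the group.

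Genes higher in CD14+ monocytes included THBS1, thrombospondin 1, with 3 and 89 UMIs (5.47 and 75.7 CPM, ratio 13.8, 4.58 to 68.3). It had 95.8 CPM in Post-IS and 18.3 at 8 wpt. THBS1 had a UMI in 1.36% of Pre-IS and 9.54% of 4 wpt thinned CD14+ monocytes (1.17% and 16.3% unthinned), against 0.266% and 0.117% of T cells. GK5, too rare to count as measured, went from 7.30 to 46.8 CPM (6.41, 2.37 to 24.4) and CSTA, the protease inhibitor cystatin A, from 139 to 405 (2.92, 2.29 to 3.77). Classical monocyte genes were otherwise level: 1 of 17 was past 2-fold, THBS1, and the median was 0.09. Of all measured genes in this class 1.6% were past 2-fold higher. LYZ, lysozyme, stood at 10220 and 10896 CPM, S100A8 at 6029 and 7577, S100A9 at 2102 and 2696 and VCAN at 956 and 1478, while CD14 went from 883 to 651. Neutrophil genes summed to 943 and 998 CPM in this class.

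MS4A7+ monocytes kept most of their defining genes but had less C1q. C1QB went from 720 to 233 CPM (3.09-fold lower, 2.26 to 4.2), C1QC from 310 to 81.8 (3.79-fold, 2.28 to 6.23) and C1QA from 250 to 16.8 (14.9-fold, 6.51 to 38.2, from 25 and 8 UMIs). The 3 genes encode the chains of complement C1q. In thinned cells C1QB had a UMI in 23.8% of 42 Pre-IS and 8.94% of 179 4 wpt cells (21.3% and 11.6% unthinned), against 0.905% and 0.707% of CD14+ monocytes. C1Q UMIs were concentrated, with 35.5% of Pre-IS C1QC UMIs in 1 of 75 cells. MS4A7 itself stood at 840 and 931 CPM, FCGR3, which encodes CD16, at 1399 and 1642, CX3CR1 at 520 and 516 and CDKN1C at 350 and 461. Of 9 measured nonclassical genes 2 were past 2-fold lower (median -0.17 against -0.12, with 1.69% of all measured genes past 2-fold lower), C1QB and LST1 (1259 and 543 CPM). LST1, a leukocyte transmembrane protein, was lower in CD14+ monocytes as well, at 228 and 92.7 CPM. In Post-IS and 8 wpt, C1QA had 116 and 364 CPM and C1QB 479 and 831, so 4 wpt was the lowest of the 4 libraries for both.

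Genes higher in MS4A7+ monocytes had few UMIs in Pre-IS, where the class total was 100047 UMIs and a count of 0 allows up to 30.0 CPM. CEP350, a centrosome protein, had 0 and 45 UMIs, at least 3.15-fold higher. CTDSP2, a phosphatase, had 1 and 52 UMIs (ratio 10.9, 1.87 to 439). LRRC47 was lower, at 110 and 23.1 CPM (4.77-fold, 1.87 to 12.1). ISG20, an interferon-induced exonuclease, went from 130 to 287 CPM (2.21, 1.25 to 4.26). With both monocyte labels pooled, the C1Q genes had log2 ratios of -1.01 (C1QA), -0.48 (C1QB) and -0.20 (C1QC), against -3.84, -1.63 and -1.93 in MS4A7+ monocytes alone. In the pool CEP350 had 1.06, CTDSP2 0.75 and LRRC47 -0.49. C1QA, C1QC, CEP350, CTDSP2, LRRC47 and FKBP5 were too rare in this class to count as measured.

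**Figure D5:**
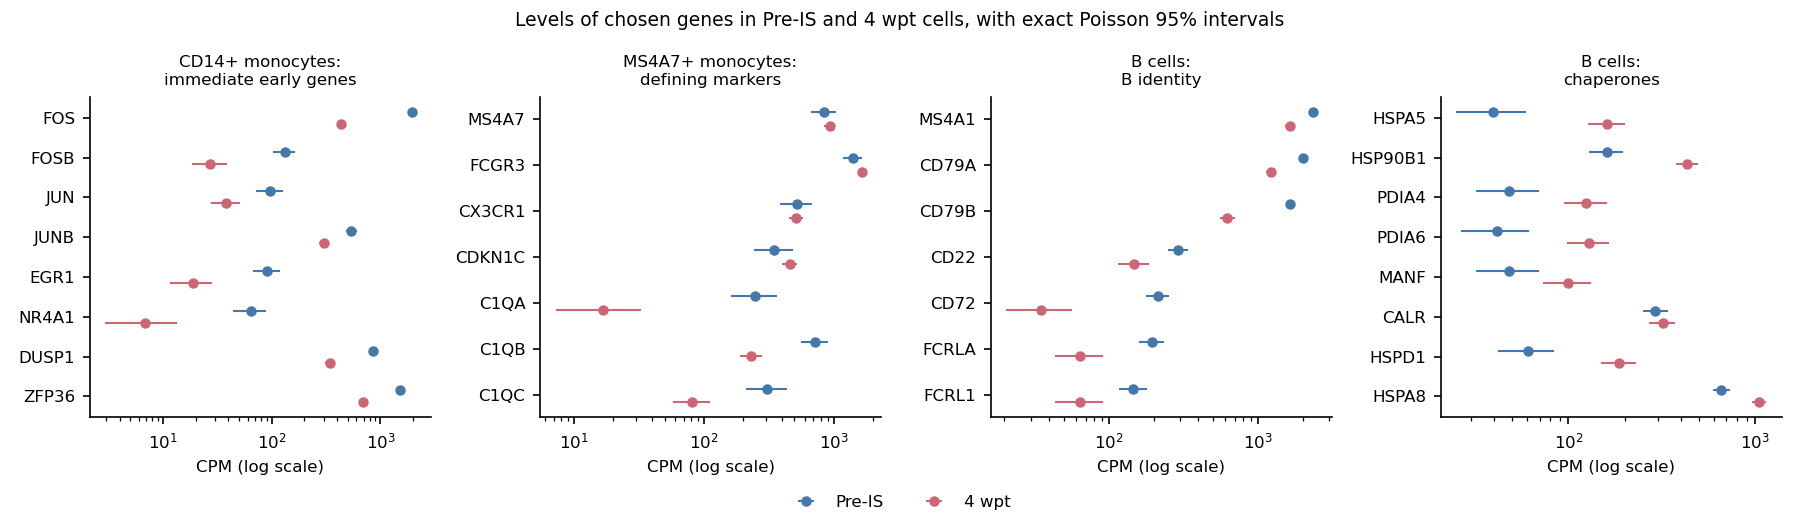
CPM (log axis) of chosen genes in Pre-IS and 4 wpt cells with exact Poisson 95% intervals, in 4 panels of 1 class each. FOS (1961 and 437 CPM), C1QA (250 and 16.8 CPM) and CD72 (214 and 35.2 CPM) lie well apart, HSPA5 (39.7 and 162 CPM) is higher at 4 wpt, and MS4A7, CX3CR1 and CALR overlap.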

How the data were processed

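The libraries were made with the 10x Genomics 5' V1 kit, per the labels' protocols, and Cell Ranger 3.1.0, Seurat 3.2.3 and build Mmul_10 are named in the submitters' processing notes. The authors deposited raw UMI counts and a cell type label per barcode; their filters on cells and genes are not given in the sources used here. UMIs were summed per label and library and scaled to the class total. A gene was measured at 20 or more expected UMIs in the smaller class total, and called at a fold of 2; log2 ratios use an offset of 0.5 UMIs. In each class 4 genes per direction at most were named, ranked on the conservative bound of their interval, which had to exceed 1.5-fold, from genes with 20 or more UMIs that were seen in 5% of cells. Unsymbolled genes, genes under 10% of their highest class, and ribosomal, mitochondrial, globin, antibody and T cell receptor genes were not eligible. Up to 8 shared genes per direction, 3 private genes per class and direction, and the 4 most abundant members of a list were added. Other genes were chosen after their values were seen. Possible doublets had over 2 times the median UMIs of their label and at least 2 markers of another lineage. The comparison, members and lists were chosen with earlier results of these data known. Calculations used python 3.11.15, numpy 2.4.6, scipy 1.17.1 and pandas 2.3.3, with TMM factors from edgeR 4.0.16 in R 4.3.3 and plots from matplotlib 3.10.9, and were tested on simulated data. No promoter sequences were used here. A few genes that the rule would name are not reported here.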

Additional observations from a re-analysis of the deposited data

How the results depend on the processing

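No ratio of a gene named by rank turned direction under the alternatives run, and no share ratio whose interval excluded 1 did. Genes named for other reasons were not all followed, and CALR in B cells had a ratio of 1.09, and 0.878 with possible doublets left out. Of 1660 list medians 167 changed sign, each of them at most 0.39 in size before. The larger direction among genes past the fold also turned, from 102 higher and 79 lower to 88 and 96 in B cells with TMM scaling, from 53 and 40 to 75 and 77 in CD14+ monocytes with equal weight per cell, and from 12 and 13 to 17 and 10 in MS4A7+ monocytes with TMM scaling. The counts of genes past the fold moved by over 1.5 times in 49 of 126 cases. Most of these came with the minimum of UMIs or the fold itself, and the others with further changes given below. With at least 10 expected UMIs, higher and lower genes were 219 and 97 in T cells, 177 and 90 in NK cells, 314 and 205 in B cells, 155 and 162 in CD14+ and 51 and 53 in MS4A7+ monocytes, and shared genes 16 and 4. With at least 50 they were 29 and 16, 13 and 6, 28 and 34, 13 and 7, and 5 and 6, with 5 and 1 shared and 11 private. At a fold of 1.5 they were 572 and 311, 270 and 202, 408 and 332, 225 and 297, and 47 and 71, with 67 and 25 shared. At a fold of 3 they were 11 and 4, 10 and 2, 24 and 30, 6 and 6, and 2 and 1. Cells thinned to 1000 UMIs gave 20 and 18 in B cells, 1 shared lower and 10 private genes. Equal weight per cell gave 170 higher in B cells, 77 lower in CD14+ monocytes and 13 shared higher. Pooled lineages gave 98 higher in monocytes (main counts 53 and 12) and 36 lower beside MS4A7+ (main count 13). Median-of-ratios scaling gave 20 higher in MS4A7+ monocytes. Totals without ribosomal, mitochondrial, globin, antibody and T cell receptor genes gave 1 shared lower gene. Leaving out the top cell of each gene, an alternative chosen after seeing the data, gave 8 lower in MS4A7+ monocytes and 1 shared lower gene. The MS4A7+ share ratio was 4.04 among cells of at least 1000 UMIs, and the other 31 of 32 share ratios moved by less than their interval. Fewer genes are tested under a higher minimum; for the other changes the cause was not tested. Leaving out the 7 cells that held over 90% of a gene, also chosen after seeing the data, moved none of these counts by over 1.5 times. By size, 76 of the list medians moved and 20 of 464 ratios of genes named by rank. No paired analysis was possible because each group is 1 library. The promoter search was not run. Depth limits MS4A7+ monocytes most, with 769 genes measured.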

Other observations

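The labels too small to compare, with under 50 cells in 1 or both libraries, gave these values for several of the genes shared by the larger classes. RBIS stood at 75.6 CPM in Pre-IS and 344 at 4 wpt in naive B cells, at 88.5 and 356 in dendritic cells and at 146 and 183 in proliferating NK and T cells. ND2 went from 372 to 1075 CPM in naive B cells, from 376 to 739 in dendritic cells and from 354 to 695 in proliferating cells, and ZC3H10 from 3883 to 1957, from 2596 to 1323 and from 3939 to 1627. IFI27 had 3 and 65 UMIs in proliferating cells (62.5 and 204 CPM) and 0 UMIs in both libraries in naive B and dendritic cells. Not every shared gene kept its direction. ENSMMUG00000055690 was higher in naive B cells (3946 and 15033 CPM) and dendritic cells (3171 and 6791) but lower in proliferating cells (10212 and 5134). ENSMMUG00000062077, another shared higher gene without a symbol, had 4457 and 8775 CPM, 2994 and 2990, and 8149 and 3067 in these labels. The 12 cells of the platelet label, which had 7 of 8 platelet markers at 0, had 276 CPM of ND2, 1474 of ZC3H10 and 0 UMIs of IFI27.

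Several gene groups of basic cell function stayed almost wholly within 2-fold in all 5 classes, as did most measured genes. Over all measured genes, 94.9% in B cells and 96.7% to 97.7% in the other classes were within 2-fold. Counts of 0 in short lists are therefore near the share over all genes. Glycolysis and hypoxia genes had 0 past 2-fold of 14 measured in T cells (median log2 ratio 0.05), 11 in NK cells (0.08), 12 in B cells (0.10), 14 in CD14+ monocytes (0.04) and 6 in MS4A7+ monocytes (0.07). Splicing and RNA binding genes also had 0, with medians from 0.12 in B cells to 0.26 in NK cells over 12 to 15 genes. Cytoskeleton and actin genes had 0 of 14 in each class, and medians from 0.04 in B cells to -0.32 in MS4A7+ monocytes.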
